A study of Mus musculus with 6 samples.

Results

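The genes described here are type I interferon stimulated genes, a set of 35 names made up of interferon beta itself, nucleic acid sensors, antiviral effectors and ubiquitin-like modifiers. They were chosen by name as known members of the interferon response. On the array 34 of the 35 were present among 27361 gene names, Trim30 being absent under that name, and all 34 were among the 19044 genes tested. They were followed through bone marrow-derived macrophages of C57BL/6 mice with and without the transcription factor FoxO1, in 3 polarization states, with 1 Agilent 1-colour array for each genotype and state.

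Knockout cells (KO) were LysMcre FoxO1 Fl/Fl, in which Cre recombinase is expressed from the lysozyme M gene of myeloid cells, and wild-type cells (WT) were FoxO1 Fl/Fl without Cre. Loss of FoxO1 and presence of Cre therefore cannot be told apart. Cells of both genotypes were grown for 7 days with 10% medium conditioned by L929 cells, which secrete the growth factor that macrophages need. M0 cells had no further treatment, M1 cells were given 24 hours of lipopolysaccharide (LPS, 100 ng/ml) together with interferon-gamma at 20 ng/ml. M2 cells were given 24 hours of interleukin IL-4 together with IL-13, at 10 ng/ml each. Separate animals are not stated for the RNA samples, so p-values measure only the spread between these arrays.

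Type I interferons are cytokines made when cells sense microbial products such as LPS or foreign nucleic acid. They bind the receptor chains Ifnar1 and Ifnar2, and the kinases Jak1 and Tyk2 then activate a complex with Stat2 and Irf9 that binds the interferon-stimulated response element in promoters. Unstimulated macrophages keep many of these genes at a low tonic level, and interferon-gamma reaches an overlapping set through gamma-activated sequences.

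Levels are the log2 of the processed signal after division by the 75th percentile of its array, so 0 is the signal of that percentile and 1 unit is a 2-fold step. Levels of different genes come from different probes and were not set against each other. The 75th percentile lay between 532 and 627 units, 63.1% to 67.9% of spots were well above background, and no spot was saturated. The WT M0 and WT M1 arrays shared one slide and the other 4 arrays another, so KO and WT could be compared within a slide in M2, but not in M0 or M1. Foxo1, the targeted gene, read -1.42 in KO M0, 1.50 in WT M0, -1.82 in KO M1, 0.96 in WT M1, -1.15 in KO M2 and 1.50 in WT M2. It was lower on every KO array than on any WT array, as labelled. All 9 macrophage markers on the array were well above background on all 6 arrays. Albumin (Alb), a liver transcript, read -8.37 in KO M0, 3.48 in WT M0, -2.37 in KO M1, -7.72 in WT M1, -5.96 in KO M2 and -6.83 in WT M2. Serpina1d, another liver transcript, was likewise highest on these arrays, at -0.75 in KO M1 and 3.55 in WT M0. Median levels of neutrophil, stromal and monocyte markers were lower in KO than in WT cells in each state. For neutrophil markers in M1 the median KO minus WT was -0.28, with 5 above 0 and 7 below. Among the 6 neutrophil markers well above background on all 6 arrays it was 0.28.

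Promoters of several members carried the recognition sequence of the complex with Stat2 and Irf9. RefSeq promoters of the GRCm38.p6 build were found for 25 of the 34 members, and the 250 bases before the start were searched on both strands. The letters GAAA, any 2 bases and again GAAA, the core of the interferon-stimulated response element, were found in 9 of the 25 members (36%), against 3.46% of all 27025 genes with a promoter in the table. The 9 were Bst2, Ifi205, Ifit1, Ifit3, Isg15, Oas1a, Oas1g, Oas3 and Rsad2. The letters TTCNNNGAA of the gamma-activated sequence were found in 5 members (20%), against 8.13% of all genes, namely Bst2, Eif2ak2, Ifit2, Isg20 and Oas1a. The letters GTAAACA, bound by forkhead factors such as FoxO1, were found in 1 member (4%), Rsad2, against 3.54% of all genes. A match is a description of these letters in this window and does not show binding.

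**Figure D1:**
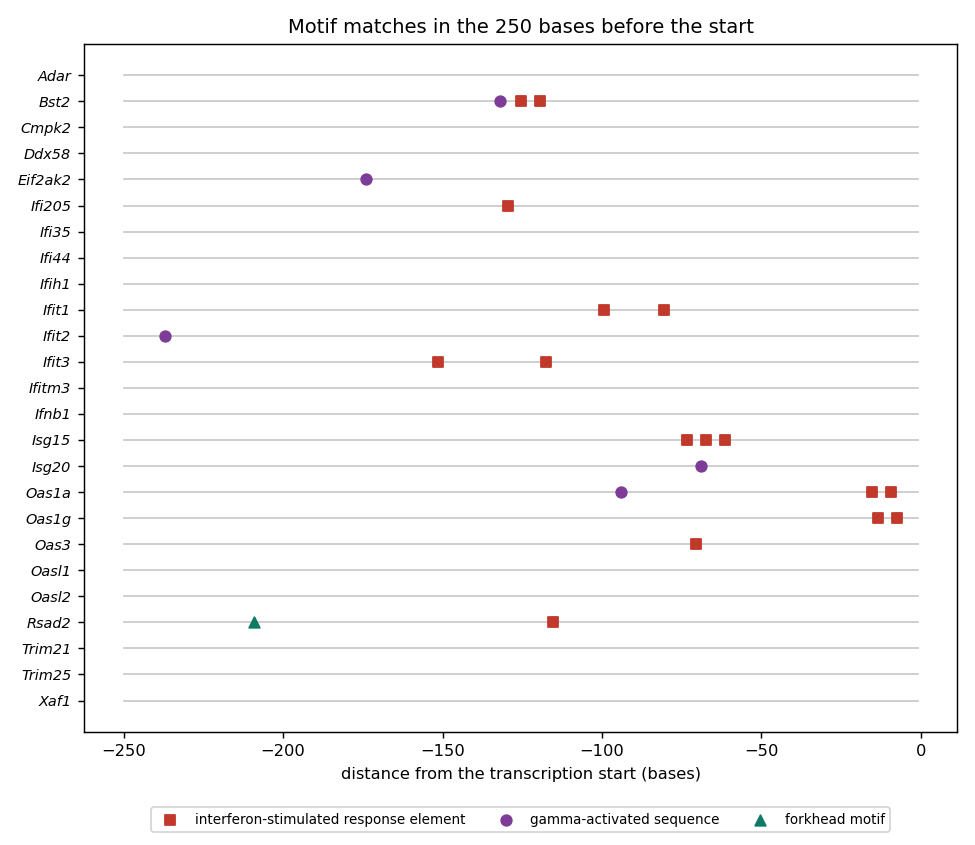
Positions of motif matches in the 250 bases before the transcription start of the 25 members with a RefSeq promoter. Each line is 1 gene, the horizontal axis is the distance from the start in bases, squares mark the interferon-stimulated response element, circles the gamma-activated sequence and the triangle the forkhead motif. Squares are seen in 9 genes and the triangle only in Rsad2.

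6 of the 9 promoters with the response element are printed, as those of the members whose values are followed most closely below. Each runs 5′ to 3′ on the strand of its gene, ends at the base before the start, and has every match to that pattern or its reverse complement in capitals. They lie at chr4:156200819-156201068 (minus strand) for Isg15, chr19:34640639-34640888 (plus strand) for Ifit1, chr19:34583279-34583528 (plus strand) for Ifit3, chr12:26456453-26456702 (minus strand) for Rsad2, chr5:120907526-120907775 (minus strand) for Oas1a and chr8:71537473-71537722 (minus strand) for Bst2, all on GRCm38.p6.
Isg15: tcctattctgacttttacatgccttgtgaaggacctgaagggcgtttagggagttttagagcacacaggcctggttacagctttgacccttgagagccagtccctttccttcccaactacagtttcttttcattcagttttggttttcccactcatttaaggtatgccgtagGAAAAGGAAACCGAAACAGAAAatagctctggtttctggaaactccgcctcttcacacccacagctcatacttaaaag
Ifit1: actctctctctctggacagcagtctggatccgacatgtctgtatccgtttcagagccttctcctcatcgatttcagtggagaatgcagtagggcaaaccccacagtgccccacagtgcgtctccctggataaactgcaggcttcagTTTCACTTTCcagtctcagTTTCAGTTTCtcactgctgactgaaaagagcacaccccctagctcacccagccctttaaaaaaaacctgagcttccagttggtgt
Ifit3: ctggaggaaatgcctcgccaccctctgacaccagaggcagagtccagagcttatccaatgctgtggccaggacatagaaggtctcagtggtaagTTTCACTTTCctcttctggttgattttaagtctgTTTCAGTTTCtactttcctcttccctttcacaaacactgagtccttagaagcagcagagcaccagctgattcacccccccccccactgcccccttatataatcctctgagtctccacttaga
Rsad2: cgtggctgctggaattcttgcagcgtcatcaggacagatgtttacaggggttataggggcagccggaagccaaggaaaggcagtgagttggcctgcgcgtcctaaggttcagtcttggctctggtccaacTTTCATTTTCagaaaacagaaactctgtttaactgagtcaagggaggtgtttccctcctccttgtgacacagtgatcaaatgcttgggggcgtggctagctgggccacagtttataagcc
Oas1a: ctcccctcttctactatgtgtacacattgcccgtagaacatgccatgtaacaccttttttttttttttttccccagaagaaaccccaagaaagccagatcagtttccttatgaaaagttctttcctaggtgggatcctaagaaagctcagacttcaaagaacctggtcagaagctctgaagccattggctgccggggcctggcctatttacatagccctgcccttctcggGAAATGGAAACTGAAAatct
Bst2: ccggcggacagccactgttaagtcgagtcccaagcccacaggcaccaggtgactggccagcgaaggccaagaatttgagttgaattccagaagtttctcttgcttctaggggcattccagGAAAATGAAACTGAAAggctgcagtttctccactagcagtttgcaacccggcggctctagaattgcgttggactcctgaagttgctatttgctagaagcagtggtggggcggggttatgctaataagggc

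Isg15 carried 3 overlapping matches between 78 and 57 bases before the start. Ifit1 and Ifit3 each carried 2 separate matches, at 104 to 95 and 85 to 76 bases in Ifit1 and at 156 to 147 and 122 to 113 bases in Ifit3. In Oas1a the 2 overlapping matches ended 5 bases before the start, closer to it than in the other printed promoters. The 9 members with the element had a median difference between M1 and M0 of 3.21 (1.96 to 6.60), and the 16 with a promoter but no match had a median of 2.73 (1.12 to 6.24). These ranges overlap almost wholly.

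Every member rose in M1 cells. In limma's additive model of genotype and state over all 6 arrays, 34 of 34 were higher in M1 than in M0 at an adjusted p below 0.05, where 11.6% of all tested genes were higher and 14% lower. The median difference was 2.98 (all tested genes 0.03), and single members ranged from 1.12 for Trim25 to 6.60 for Ifi205. For all 34 both M1 arrays lay above the 4 other arrays, as they did for 22.5% of all genes. The rise was seen within each slide. Between the M1 and M0 arrays of KO cells the median was 3.45, with 34 members at least 2-fold higher (all genes 13.3%), and between those of WT cells it was 2.46, with 33 at least 2-fold higher (11.7%). The exception was Trim25 in WT cells, at 0.93. Without any one of the M0 or M1 arrays no member passed the limma test, and neither did any other gene; the medians then lay between 2.53 and 3.46. Without either M2 array all 34 passed, with 28.6% of all genes called in either direction. Leaving out KO M1 and WT M0, the arrays where Alb and Serpina1d read highest, left WT M1 against KO M0. That comparison crosses genotype and slide as well as state, and it has no test. Its median was 3.09 (all genes -0.23), with 34 of 34 members at least 2-fold higher. The share of all genes at that size was not computed.

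**Figure D2:**
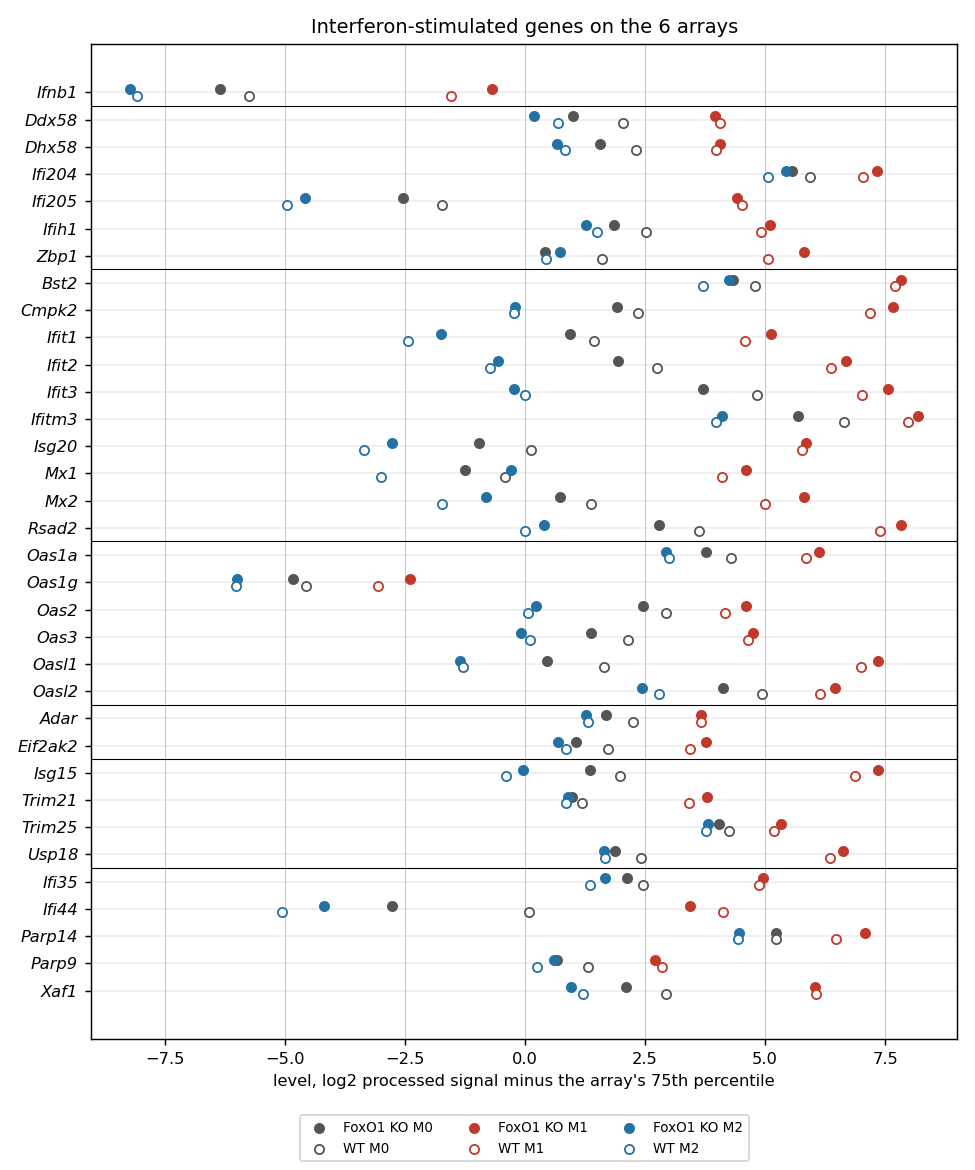
Level of each of the 34 members on the 6 arrays (horizontal axis, log2 of processed signal over the array's 75th percentile), grouped by role with thin lines between groups. Filled points are FoxO1 KO arrays and open points WT arrays, grey M0, red M1 and blue M2, and each point is 1 array. The red points lie to the right of all others for every gene, and the filled grey point lies left of the open grey point for every gene.

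In M2 cells nearly all members read below M0. No member was lower at an adjusted p below 0.05 in the limma model, while 25 of 34 (all genes 19.1%) had an unadjusted p below 0.05 and the lowest adjusted p was 0.0733, for Ifit3. Over the whole array only 0.063% of genes were called higher and 0.021% lower in M2. The median member difference between M2 and M0 was -1.37 (all genes 0.08), with a range from -4.38 (Ifit3) to -0.21 (Trim21). Both M2 arrays lay below both M0 arrays for 32 members, as they did for 21.9% of all genes. Mx1 and Zbp1 were the exceptions, since their KO M2 level was above their KO M0 level. The call depended on the setting: limma called 17 members lower with a variance prior that follows intensity, where 5.69% of all genes were called in either direction, and 15 after centring each array on its median, where 2.72% were.

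Between the genotypes no member passed the test over the 3 states. Limma called 0 of 34 members and 0% of all 19044 genes for KO against WT, the lowest adjusted p being 0.465 among members (Ddx58) and 0.305 among all genes. At an unadjusted p below 0.05 there were 0 members and 2157 genes overall. The median of the members was -0.10 (all genes 0.09), and they ran from -0.89 (Ifi44) to 0.80 (Mx1). Because each genotype had 1 array per state, a difference that varies between states enters the residual of this model.

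Within a state a single KO array was set against a single WT array, so these differences carry no test and no replicate error. In unstimulated cells all 34 members read lower in KO than in WT, where 39.5% of all genes did. The median was -0.66 (all genes 0.10) and the range -2.85 to -0.01. At least 2-fold lower were 6 members (all genes 4.25%), namely Ifi44, Oasl1, Zbp1, Ifit3, Isg20 and Ddx58, and no member was at least 2-fold higher (9.93%). All 34 stayed lower with median centring, with quantile normalization and in the authors' deposited table, and 31 did after normexp background correction. In these bulk samples fewer cells expressing a gene and less RNA per cell cannot be told apart. Other markers differed between the same M0 arrays, in both directions. Summed signal was higher in KO M0 than in WT M0 for macrophage markers (508248 against 406968 units), although 4 read higher and 5 lower. It was also higher for B cell markers (62092 against 56817 units) and for T and natural killer cell markers (247 against 128 units). All 11 tested liver transcripts read lower in KO M0 than in WT M0 with a median of -6.35. The summed signal over the liver list was 10764 units in KO M0 and 37406 units in WT M0. That sum was 13346 units in KO M2 and 21460 units in WT M2. It thus did not follow Alb, which read lower on both M2 arrays than in KO M1. All 12 neutrophil markers read lower as well (median -2.40, summed signal 9087 units in KO and 44167 units in WT), as did all 10 stromal markers (median -1.36; 3906 units in KO and 9477 units in WT) and 5 of 6 monocyte markers (median -2.06; 715 units in KO and 4488 units in WT). After normexp background correction fewer markers read lower in KO M0, namely 10 of 11 for liver (median -2.29), 9 of 12 for neutrophils (-0.41), 3 of 6 for monocytes (-0.15) and 5 of 10 for stroma (-0.018). Of the plasmacytoid dendritic cell markers, a cell type known for high interferon output, Siglech and Ly6d were not well above background on any array, and the median of the 6 tested was -0.11. The part of these cells or transcripts, and of the slide, in the members' difference was not tested.

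In M1 cells the difference had the other sign for most members. There 28 of 34 read higher in KO than in WT (all genes 62.1%), with a median of 0.30 (all genes 0.13). After median centring the median was -0.019 with 15 members higher, and the median of all genes was -0.20. No member differed by 2-fold in M1, where 14% of all genes were higher in KO and 1.71% lower by that much. Liver transcripts were also higher on the KO M1 array, 10 of 11 with a median of 2.26. Their summed signal was 2350 units in KO M1 and 1818 units in WT M1, both below the sums of the M0 and M2 arrays. Their part was not tested. In M2 cells, where both arrays shared a slide, 21 members read higher and 13 lower in KO, the shares among all genes being 45.2% and 54.8%. The median was 0.04 (all genes -0.05), and Mx1 was the only member at least 2-fold apart, on the higher side (3.36% of all genes, with 4.9% on the lower side).

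**Figure D3:**
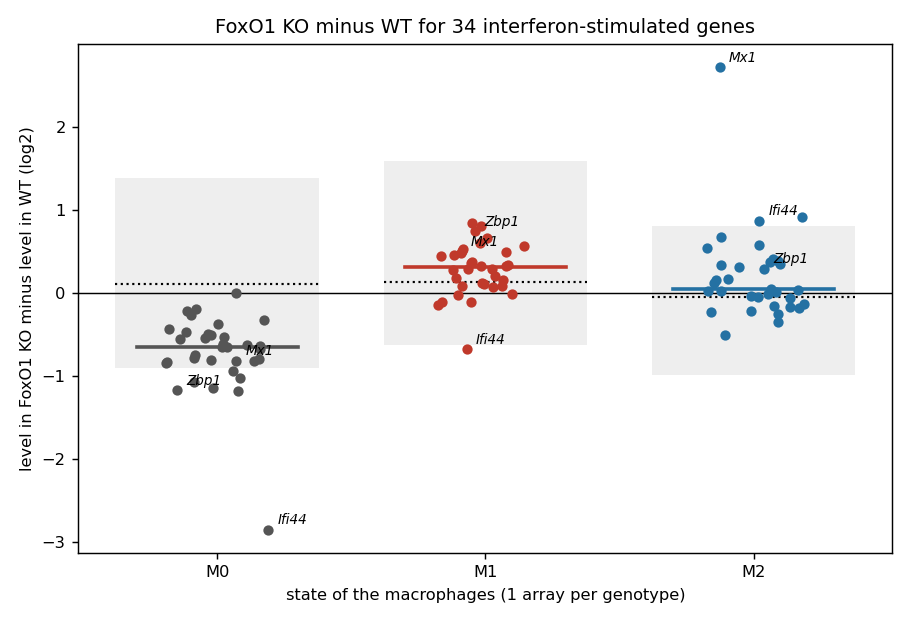
Level in FoxO1 KO minus level in WT (vertical axis, log2) for the 34 members in M0, M1 and M2 cells, 1 array per genotype and state. Each point is 1 gene, the coloured bar is the median of the members, the dotted line the median of all 19044 tested genes, and the shaded box runs between the 5th and 95th percentiles of all tested genes. All points in M0 lie below 0, with Ifi44 lowest, and Mx1 stands alone at 2.72 in M2. With median centring the M1 median of 0.30 becomes -0.019, and that of all genes moves from 0.13 to -0.20.

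For all 34 members the difference KO minus WT was lowest in M0 among the 3 states, which held for 24.5% of all genes. The M1 response, taken as M1 minus M0 within a genotype and thus within a slide, was larger in KO than in WT for 34 of 34 members (all genes 51.5%), by a median of 0.92, and 14 members differed by at least 2-fold (all genes 8.5%). M2 minus M0, which lies within a slide in KO cells but crosses slides in WT cells, was higher in KO than in WT for 34 of 34 (all genes 41.1%), by a median of 0.65, with 11 at least 2-fold apart (4.95%). At least 2-fold lower in M2 than in M0 were 18 members in KO cells (all genes 4.43%) and 27 in WT cells (8.34%), the WT count again across slides. Both response differences contain the same pair of M0 arrays. That both were above 0 for 34 of 34 members restates that their KO minus WT was lowest in M0. These counts are thus not separate observations. None of these comparisons has a test.

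**Figure D4:**
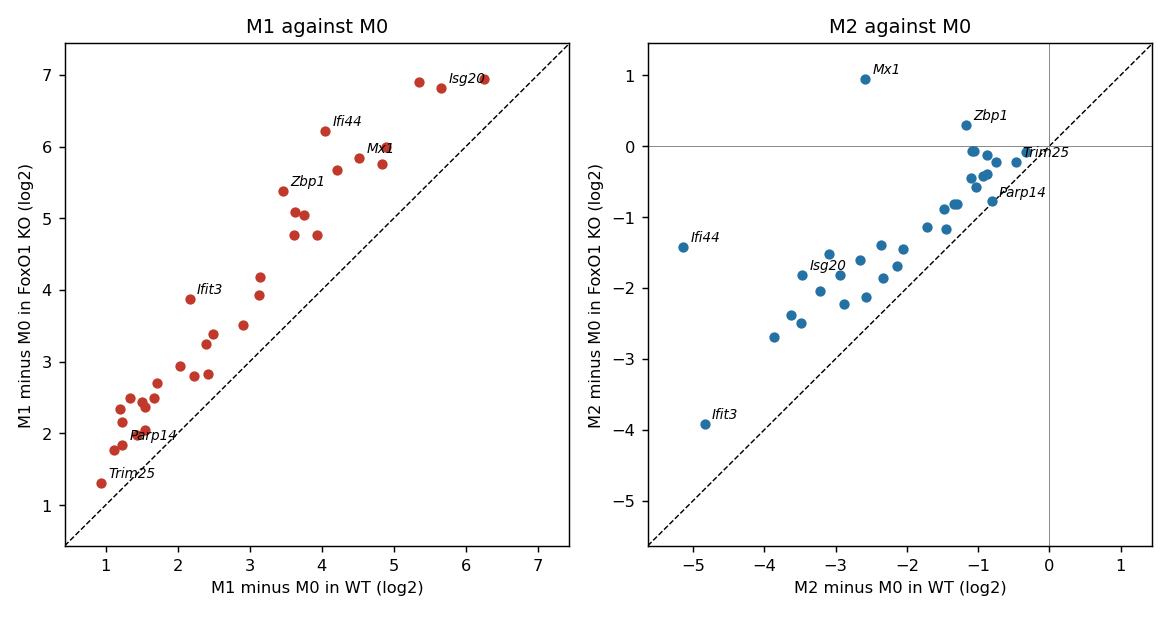
M1 minus M0 (left) and M2 minus M0 (right) for each member in FoxO1 KO cells (vertical axis, log2) and in WT cells (horizontal axis, log2). Each point is 1 gene from 4 single arrays, and the dashed line marks equal differences. All 34 points lie above the line in both panels, and both panels use the same M0 arrays.

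Ifnb1 encodes interferon beta, the ligand of the pathway. It read -6.36 in KO M0, -5.74 in WT M0, -0.69 in KO M1, -1.53 in WT M1, -8.22 in KO M2 and -8.08 in WT M2. The KO M0 spot and both M2 spots were not well above background, so only the M1 and WT M0 arrays measured it. Ifnb1 was at least 35.1-fold higher in M1 than in M2, and M1 minus M0 was 4.22 in WT cells, where both spots were measured. Limma's M1 against M0 difference of 4.94 ± 0.40 (SE, adjusted p = 0.00915) includes the KO M0 spot, so 1 of its 2 M0 values is at background. Both M2 spots, also not well above background, enter the residual behind that SE and p. Its signal read 1.53-fold lower in KO M0 than in WT M0, taken from the KO M0 spot that was not well above background. Its level was 0.84 higher in KO M1 than in WT M1.

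Among the cytoplasmic sensors, Ifih1 (MDA5), Ddx58 (RIG-I) and Dhx58 (LGP2) recognise double-stranded or otherwise foreign RNA. Ddx58 read 1.01 in KO M0, 2.03 in WT M0, 3.95 in KO M1, 4.06 in WT M1, 0.18 in KO M2 and 0.69 in WT M2. It read lower in KO in each state, with KO minus WT at -1.03 in M0, -0.11 in M1 and -0.51 in M2. Among members it had the lowest unadjusted p for KO against WT, but its 3 probes did not share a sign in M1 or in M2. Ifih1 read 1.86 in KO M0, 2.53 in WT M0, 5.10 in KO M1, 4.92 in WT M1, 1.28 in KO M2 and 1.50 in WT M2. Dhx58 read 1.57 in KO M0, 2.31 in WT M0, 4.06 in KO M1, 3.98 in WT M1, 0.67 in KO M2 and 0.83 in WT M2. For both, the KO and WT arrays lay closer together in M1 and M2 than in M0.

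Zbp1 binds nucleic acids in the Z conformation and can start necroptosis. It read 0.43 in KO M0, 1.60 in WT M0, 5.80 in KO M1, 5.06 in WT M1, 0.73 in KO M2 and 0.44 in WT M2. KO minus WT was -1.17 in M0 and 0.74 in M1, the difference between the 2 states being 1.91. The rise in M1 was 4.42 ± 0.53 (SE, adjusted p = 0.0149 in limma). Ifi204 and Ifi205 belong to the PYHIN family, whose best-known members sense DNA. Ifi205 read -2.53 in KO M0, -1.74 in WT M0, 4.41 in KO M1, 4.52 in WT M1, -4.57 in KO M2 and -4.95 in WT M2, and its rise of 6.60 ± 0.33 (SE, adjusted p = 0.00682 in limma) was the largest of all members. Ifi204 read 5.56 in KO M0, 5.93 in WT M0, 7.33 in KO M1, 7.04 in WT M1, 5.43 in KO M2 and 5.06 in WT M2, a rise of 1.44. The PYHIN, Oas1 and Ifit genes of the mouse are families of close copies, and cross-hybridization between their probes was not tested.

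The 10 members grouped as antiviral effectors, Cmpk2 among them, rose by a median of 4.27 in M1, and their median M2 minus M0 was -2.50. The Ifit genes encode tetratricopeptide proteins that bind foreign RNA. Ifit1 read 0.94 in KO M0, 1.44 in WT M0, 5.12 in KO M1, 4.59 in WT M1, -1.76 in KO M2 and -2.43 in WT M2. Ifit2 read 1.93 in KO M0, 2.76 in WT M0, 6.69 in KO M1, 6.37 in WT M1, -0.57 in KO M2 and -0.73 in WT M2. Ifit3 read 3.70 in KO M0, 4.84 in WT M0, 7.57 in KO M1, 7.01 in WT M1, -0.23 in KO M2 and 0.00 in WT M2. Each of the 3 read lower in KO than in WT in M0 (KO minus WT -0.51, -0.83 and -1.14). In M1 each read higher in KO (0.53, 0.32 and 0.56). Median centring lowered the M1 values, with a median of -0.019 over all 34 members and -0.20 over all genes. The M1 rise was 3.67 ± 0.36 for Ifit1 (SE, adjusted p = 0.0111 in limma). In M2 Ifit3 had the most negative difference from M0 of any member, -4.38 ± 0.46, at an adjusted p of 0.0733 in limma.

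Mx1 and Mx2 belong to a family of dynamin-like GTPases, and whether these cells made working protein from either gene was not measured. Mx1 read -1.24 in KO M0, -0.42 in WT M0, 4.60 in KO M1, 4.10 in WT M1, -0.29 in KO M2 and -3.01 in WT M2. The M2 arrays, which shared a slide, thus differed by 2.72, and 99.8% of tested genes had a lower signed KO minus WT. A second Mx1 probe gave 2.41 in M2, -0.76 in M0 and 0.54 in M1; the probes lie at chr16:97669616-97669675 and chr16:97672001-97672060 on mm9. Mx2 read 0.72 in KO M0, 1.38 in WT M0, 5.81 in KO M1, 5.005 in WT M1, -0.80 in KO M2 and -1.72 in WT M2. The 2 genes shared the order of the genotypes in all 3 states, with KO lower in M0 and higher in M1 and M2. This was not particular to them, since 28 of 34 members had these signs in M0 and M1, and 21 read higher in KO in M2. The M1 rise was 5.18 ± 0.92 for Mx1 (SE, adjusted p = 0.0300) and 4.36 ± 0.47 for Mx2 (SE, adjusted p = 0.0126) in limma.

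Rsad2 encodes viperin, which makes a chain-terminating nucleotide, and Cmpk2 is its genomic neighbour and encodes a mitochondrial nucleotide kinase. Rsad2 read 2.79 in KO M0, 3.63 in WT M0, 7.84 in KO M1, 7.38 in WT M1, 0.41 in KO M2 and 0.00 in WT M2. Cmpk2 read 1.92 in KO M0, 2.36 in WT M0, 7.67 in KO M1, 7.19 in WT M1, -0.21 in KO M2 and -0.22 in WT M2. The neighbours had the same order of states in both genotypes, M2 lowest and M1 highest, as 32 of the 34 members did. KO minus WT for Cmpk2 was -0.44 in M0 on this probe and -0.56 on its second probe. Cmpk2 rose by 5.29 ± 0.28 in M1 (SE, adjusted p = 0.00682 in limma).

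Bst2 (tetherin) holds budding virions at the cell surface and Ifitm3 hinders fusion of virus and endosome. Bst2 read 4.32 in KO M0, 4.79 in WT M0, 7.83 in KO M1, 7.70 in WT M1, 4.25 in KO M2 and 3.71 in WT M2. Ifitm3 read 5.70 in KO M0, 6.64 in WT M0, 8.19 in KO M1, 7.98 in WT M1, 4.10 in KO M2 and 3.98 in WT M2. Ifitm3 differed between KO and WT by -0.94 in M0, against 0.21 in M1 and 0.11 in M2. Isg20, an RNA exonuclease, read -0.96 in KO M0, 0.12 in WT M0, 5.86 in KO M1, 5.78 in WT M1, -2.78 in KO M2 and -3.35 in WT M2. Its M1 rise of 6.24 ± 0.46 (SE, adjusted p = 0.00824 in limma) was exceeded among members only by that of Ifi205, and its second probe gave -0.76 for KO minus WT in M0 and -0.17 in M2.

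The oligoadenylate synthetases make the short oligoadenylates that activate RNase L, whereas Oasl1 and Oasl2 are relatives named for their likeness to them. All 6 rose in M1, by 1.69 (Oas2) to 6.12 (Oasl1), by limma's test. KO minus WT ran from -1.18 (Oasl1) to -0.27 (Oas1g) in M0 and from 0.10 (Oas3) to 0.66 (Oas1g) in M1. Signs in M1 depended on the scaling. With median centring only 15 of all 34 members were above 0, where the median of all genes was -0.20. Oasl1 read 0.46 in KO M0, 1.64 in WT M0, 7.35 in KO M1, 6.99 in WT M1, -1.36 in KO M2 and -1.30 in WT M2. Its KO and WT arrays were apart in M0 and nearly equal in M2. Oas1a read 3.76 in KO M0, 4.30 in WT M0, 6.13 in KO M1, 5.85 in WT M1, 2.95 in KO M2 and 3.00 in WT M2. Oas2 read 2.45 in KO M0, 2.94 in WT M0, 4.61 in KO M1, 4.17 in WT M1, 0.23 in KO M2 and 0.06 in WT M2. Unlike Oas1a, Oas2 stood further below M0 in M2 (-2.55 ± 0.28, adjusted p = 0.0750 in limma) than it stood above M0 in M1 (1.69). The levels of Oas1g ran from -6.01 (WT M2) to -2.39 (KO M1), those of Oas3 from -0.08 (KO M2) to 4.76 (KO M1), and those of Oasl2 from 2.44 (KO M2) to 6.47 (KO M1).

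Eif2ak2 (PKR), the kinase that stops translation on double-stranded RNA, and Adar, which edits such RNA, had smaller rises. Eif2ak2 read 1.07 in KO M0, 1.73 in WT M0, 3.77 in KO M1, 3.45 in WT M1, 0.68 in KO M2 and 0.86 in WT M2. Adar read 1.69 in KO M0, 2.24 in WT M0, 3.66 in KO M1, 3.68 in WT M1, 1.27 in KO M2 and 1.31 in WT M2. The M1 rise was 2.21 ± 0.29 for Eif2ak2 (SE, adjusted p = 0.0173 in limma) and 1.70 ± 0.21 for Adar (SE, adjusted p = 0.0161 in limma). The Adar probes disagreed on the genotypes in M0, at -0.55 for the brighter and 0.16 for the other.

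Isg15 is a ubiquitin-like protein that is attached to other proteins, and Usp18 removes it and also dampens signalling at the receptor. Isg15 read 1.35 in KO M0, 1.98 in WT M0, 7.35 in KO M1, 6.87 in WT M1, -0.04 in KO M2 and -0.39 in WT M2. Usp18 read 1.87 in KO M0, 2.41 in WT M0, 6.63 in KO M1, 6.35 in WT M1, 1.65 in KO M2 and 1.66 in WT M2. Both rose steeply in M1, by 5.44 ± 0.34 for Isg15 (SE, adjusted p = 0.00715) and 4.35 ± 0.26 for Usp18 (SE, adjusted p = 0.00709) in limma, but M2 minus M0 was -1.88 for Isg15 and -0.48 for Usp18. Trim21, a cytosolic antibody receptor and ubiquitin ligase, read 0.98 in KO M0, 1.18 in WT M0, 3.78 in KO M1, 3.41 in WT M1, 0.90 in KO M2 and 0.85 in WT M2. Trim25, the ligase that modifies RIG-I, read 4.03 in KO M0, 4.25 in WT M0, 5.34 in KO M1, 5.19 in WT M1, 3.81 in KO M2 and 3.78 in WT M2. These ligases had the smallest M2 differences in this group, -0.21 for Trim21 and -0.35 for Trim25, and the Trim25 probes disagreed on the sign of KO minus WT in M0, at -0.22 for the brighter and 0.02 for the other.

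Of the remaining 5 members, Ifi44, a cytoplasmic protein of the interferon response, differed most between the genotypes. It read -2.77 in KO M0, 0.08 in WT M0, 3.44 in KO M1, 4.12 in WT M1, -4.19 in KO M2 and -5.06 in WT M2. KO minus WT was -2.85 in M0, a 7.21-fold difference that was exceeded on the lower side by 0.4% of tested genes, then -0.68 in M1 and 0.87 in M2. A second Ifi44 probe, well above background on 4 of 6 arrays, gave -2.12 in M0. Xaf1, a protein linked to cell death, read 2.11 in KO M0, 2.93 in WT M0, 6.03 in KO M1, 6.05 in WT M1, 0.96 in KO M2 and 1.22 in WT M2. Ifi35 read 2.12 in KO M0, 2.45 in WT M0, 4.95 in KO M1, 4.88 in WT M1, 1.67 in KO M2 and 1.35 in WT M2. In both the genotypes were close in M1. Parp9 and Parp14 belong to the ADP-ribosyltransferase family. Parp9 read 0.67 in KO M0, 1.31 in WT M0, 2.72 in KO M1, 2.86 in WT M1, 0.60 in KO M2 and 0.26 in WT M2. Parp14 read 5.23 in KO M0, 5.24 in WT M0, 7.07 in KO M1, 6.47 in WT M1, 4.45 in KO M2 and 4.43 in WT M2, with its genotypes nearly equal in M0 and M2 on this probe. Its 2 other probes gave KO minus WT of -0.82 and -0.50 in M0 and of 0.55 and 0.19 in M2. The M1 rise was 5.13 ± 0.96 for Ifi44 (SE, adjusted p = 0.0333 in limma), the highest adjusted p of the members.

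Of the 34 members 14 had several probes well above background on all 6 arrays, 32 probes in all. Their probes shared the sign of KO minus WT in 12 of 14 in M0, the exceptions being Adar and Trim25, in 12 of 14 in M1 and in 6 of 14 in M2. The M1 rise was seen by every probe of all 14.

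Genes that carry the interferon signal were compared from a separate list of 25 tested signalling genes. Of these 11 were higher in M1 than in M0 in limma and none lower, among them Tyk2, Stat2, Irf9, Irf7, Irf1, Ticam2, Tbk1, Ikbke, Socs1 and Ptpn6. None was called in M2 in limma, where 6 had an unadjusted p below 0.05. Irf7, the factor that amplifies interferon production, read 0.99 in KO M0, 2.52 in WT M0, 6.19 in KO M1, 5.88 in WT M1, -0.67 in KO M2 and 0.04 in WT M2. Its KO minus WT was -1.53 in M0 and 0.31 in M1, the signs seen in 28 of 34 members, or in 15 with median centring. In M2 Irf7 also read lower in KO, whereas the members' median there was 0.04. Irf7 rose by 4.28 ± 0.49 in M1 (SE, adjusted p = 0.0139 in limma). Stat2 read 2.27 in KO M0, 3.09 in WT M0, 5.35 in KO M1, 5.11 in WT M1, 1.77 in KO M2 and 2.07 in WT M2. For Stat2, KO minus WT was -0.83 in M0, and its M1 arrays lay above the other 4. Irf9 rose by 0.72 ± 0.16 in M1 (SE, adjusted p = 0.0489 in limma), Tyk2 by 1.06, Ticam2 by 1.06, Tbk1 by 1.07, Ikbke by 0.95, Ptpn6 by 0.93 and Irf1 by 3.08. Socs1, an inhibitor of the receptor kinases, rose by 6.31 ± 0.43 in M1 (SE, adjusted p = 0.00787 in limma) and stood 4.42 above M0 in M2 (adjusted p = 0.0707 in limma). Ifnar1, Ifnar2 and Irf3 had M1 differences of 0.24, 0.41 and 0.04 that did not pass limma's test, with adjusted p between 0.180 and 0.905. KO minus WT over the 25 had a median of 0.01 in M0, with 13 above 0 and 12 below, and Irf7 was the only one at least 2-fold lower.

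Other interferon-stimulated genes and the GTPases induced by interferon-gamma were set beside the members. Of 33 other interferon-stimulated genes, 23 were higher and 1 lower in M1 in limma, and 27 read lower in KO in M0, with a median of -0.40. The largest were Ly6e (-2.16), Ddx60 (-1.60) and Sp100 (-1.04), and these 3 also read lower in KO in M1 (-0.59, -0.23 and -0.16) and in M2 (-1.16, -0.61 and -0.50). All 13 GTPases were higher in M1 in limma, and all 13 read lower in KO in M0 (median -1.09; 10 of 13 after normexp background correction). In M1 all 13 read higher in KO (median 0.46; 11 of 13 with a median of 0.14 after median centring), and in M2 12 of 13 read lower (median -0.51). The 3 GTPases furthest apart in M0 among those measured on all arrays were Iigp1 (-1.91), Gbp7 (-1.41) and Tgtp1 (-1.29). In M2 the GTPases and the members differed in their medians, -0.51 and 0.04, a difference that was not tested.

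**Figure D5:**
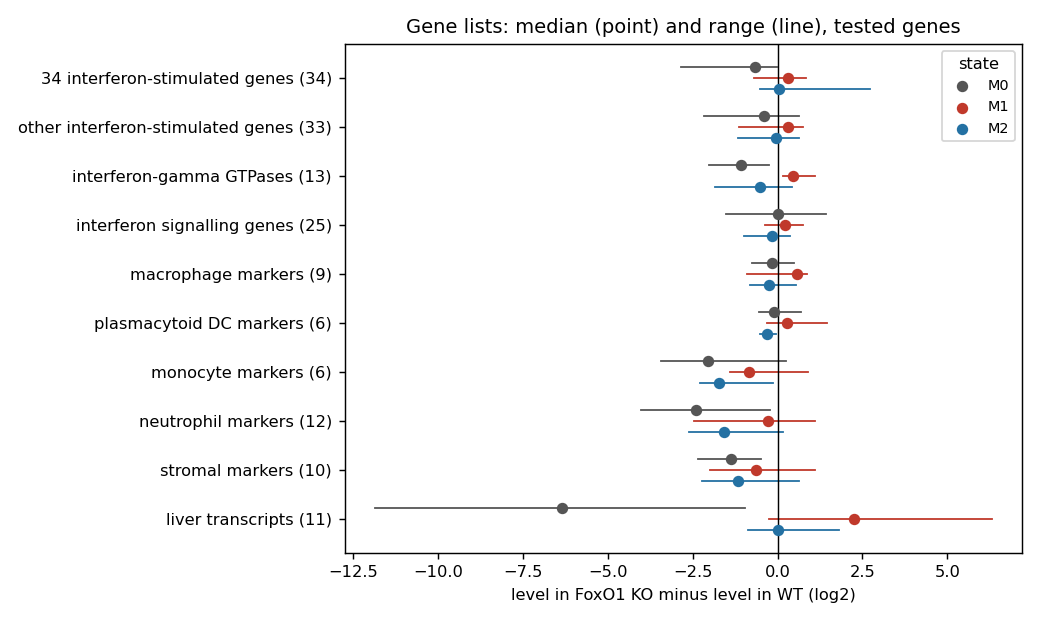
Level in FoxO1 KO minus level in WT (horizontal axis, log2) for the 34 members and 9 comparison lists, with the number of tested genes in brackets. Points are list medians, lines run over the range of the genes, and grey, red and blue are M0, M1 and M2, with 1 array per genotype and state. The medians in M0 are -0.66 for the members, -1.09 for the GTPases and -6.35 for the liver transcripts. With median centring the M1 medians of the members and of the other interferon-stimulated genes turn to -0.019 and -0.011. That of all genes in M1 is then -0.20.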

How the data were processed

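RNA of bone marrow-derived macrophages was measured on 6 Agilent 4x44K arrays of design 014868, 1 for each of 2 genotypes and 3 states, grouped by the labels. The authors deposited scanner files with spot intensity values of the software Agilent Feature Extraction, version 10.7.3.1 per the file headers, in which the processed signal has its background subtracted. Probe positions are on mm9. A further table that the authors deposited holds log2 values, with scaling not given in sources used here, and served as an alternative. Over probes, the lowest Pearson r between a column and its own array was 0.99886 and the highest with another array 0.98957; column medians were 5.39 to 5.41.

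From these files, control spots and outlier-flagged spots (79 to 164 of 43379 per array) were left out, repeated spots were averaged, and 37 of 41174 probes were dropped for a missing array. From the log2 of the processed signal, that of the array's 75th percentile was subtracted. The brightest probe stood for a gene, which was tested where 2 or more arrays had it well above background. Limma 3.58.1 in R 4.3.3 fitted genotype and state on all arrays with eBayes (prior df 1.88, 2 residual df, median residual SD 0.212) and Benjamini-Hochberg adjustment over 19044 genes at 0.05. The fit was tested on simulated data. Within-state differences are single-array values with no test. Where a spot was not well above background, "at least" folds use the higher of the lowest well-above signal of that array and the spot's own.

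Members and lists were chosen with earlier results of these data known. Named were all members, signalling genes called in M1 or M2 with 7 fixed ones, the 3 genes of each comparison list furthest apart in M0 and measured on all arrays, Foxo1, Alb and Serpina1d; 1 of the fixed genes is not reported here. Alternatives were median centring, quantile normalization, normexp (offset 50), the authors' table, 2 other filters on dim probes, the mean of all probes, slide as a term, an intensity trend, a model with 1 factor, and each array left out. Figures were drawn with matplotlib 3.10.9. Promoters are those of a RefSeq table. Probe sequences were not used here.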

Additional observations from a re-analysis of the deposited data

Results flagged for a closer look

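Opposite signs of KO minus WT in 2 states, with at least 0.5 on the log2 scale in each and all 4 spots well above background, picked out 7 members. Each is a difference between single arrays and was not tested. The share of all tested genes that met this rule was not computed, so the 7 members have no background to be set against. Between M0 and M1 the value turned for Zbp1 (by 1.91), Ifit3 (by 1.70), Mx2 (by 1.46), Mx1 (by 1.32) and Ifit1 (by 1.04). Between M0 and M2 it turned for Ifi44 (by 3.72), Mx1 (by 3.53), Isg20 (by 1.65), Mx2 (by 1.57) and Ifit1 (by 1.18), and between M1 and M2 for Ifi44 (by 1.55). The median of the 34 members turned by 0.96 between M0 (-0.66) and M1 (0.30) and by 0.70 between M0 and M2 (0.04). With median centring the M1 median was -0.019, and that of all genes was -0.20. With median centring 0 of the 5 genes between M0 and M1 had 0.5 in both states, and with quantile normalization or in the authors' table Zbp1 and Mx2 did. Between M0 and M2 the same 5 genes met it with median centring, but of these only Ifit1, Mx1 and Mx2 with the mean of all probes and only Mx2 with normexp. All comparisons with M0 share the KO M0 and WT M0 arrays.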

How the results depend on the processing

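No paired analysis was possible because each genotype and state had 1 array and the labels carry no replicate numbers. Members called lower in M2 numbered 15 with median centring (all genes, either direction, 2.72%), 17 with an intensity trend (5.69%), 6 when only genes measured above background on all 6 arrays were tested (1.73%), 5 without genotype in the model (0.777%), and 1 each with quantile normalization (0.772%) and the authors' table (0.803%), against 0. The M1 against M0 median was 3.21 with median centring, 2.63 with quantile normalization and 2.58 in the authors' table. Members called higher ranged from 25 with normexp (all genes, either direction, 6.78%) to 34, as in the main setting (25.6%). Leaving out 1 array gave 0 to 34 members higher in M1 with medians from 2.53 to 3.46, medians from -1.90 to -1.05 in M2, and from -0.27 to 0.18 for KO against WT. KO minus WT in M1 had a median of -0.019 with 19 members below 0 with median centring, 0.088 with 12 below 0 with quantile normalization, 0.084 with 13 in the authors' table, and 3 below 0 with normexp. The larger M1 response in KO had a median of 0.63 with median centring, and with normexp 3 members were below 0. Normexp also gave a median of -1.03 for M2 against M0, and of 0.92 for the M2 response difference with 3 members below 0. Reversed with normexp were the M1 response difference of Ifnb1 (-0.87) and the M2 response difference of Ifi205 (-0.28). The cause of these shifts was not tested. Median centring moved the median of all genes for KO minus WT in M1 to -0.20, against 0.13. Precision is limited by 1 array per group.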
